A study of Mus musculus with 6 samples.

Results

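The mitosis genes described here are 40 genes whose products build the mitotic spindle, attach chromosomes to it, hold back or start anaphase, and split the cell. They were taken by name: an array spot belonged to the group if its gene name or its accession's current symbol was on the list of 40, with Cdc2a read as Cdk1. All 40 were found, on 66 of 41174 probes, among 28786 gene names on the arrays. All 40 passed the filter for low signal, as did 18044 of the 28786 names. Dnmt3a-null (KO) neural stem cells were hybridised together with wild-type (WT) cells, in different dyes, on 6 arrays that read 2 colours. The cells came from the subventricular zones of mice at postnatal day 14 to 21 and were kept as adherent cultures in FGF-2 and EGF, each at 10 ng/ml. On 2 arrays KO and WT cells were differentiating, replated with mitogens for 2 days and then left without them for 3 days. On the other 4 arrays KO and WT cells were proliferating with mitogens present. The labels call the arrays biological replicates and do not say whether the cultures came from separate animals. The p-values therefore measure the spread between these cultures, pooled over all 6 arrays. For the KO effect a dye term was fitted, and the 2 differentiating arrays had KO RNA in opposite dyes. Part of their difference is thus fitted as dye, and an SD printed beside a p-value is not the spread behind it.

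Cells prepare for mitosis by switching on a large set of genes together in late S and G2 phase. From work largely in human cells, in resting and early cycling cells these genes are held silent by the DREAM complex, whose MuvB core recognises a short promoter element called the cell cycle genes homology region (CHR). As cells move on, MuvB joins the activators B-Myb and FoxM1, and NF-Y acts from nearby CCAAT boxes. The proteins are destroyed again at the end of mitosis. In the postnatal subventricular zone, stem and progenitor cells divide under mitogens and turn the set off as they differentiate into neurons and glia.

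Before the results, the labels were checked against the signals. Dnmt3a had log2 KO over WT ratios of -1.49 and -1.28 on the differentiating arrays and of -1.11, -0.98, -0.64 and -1.10 on the proliferating ones. It was lower in KO cells on all 6 arrays, although it is not known here whether the probe lies in the deleted part. Nes and Sox2, markers of neural stem cells, were well above background by Agilent's own flag in every group. Nes fell in differentiating cells, by 3.00 on the log2 scale in KO cells (adjusted p = 0.00173) and by 2.17 in WT cells (adjusted p = 0.00521), and Sox2 differed by 0.02 and 0.17. Proliferating replicate 4 stood apart: all 40 mitosis genes were lowest there among the proliferating samples, in KO and in WT cells alike. Their median log2 signal on it was 10.9 in KO and 10.4 in WT cells, against 11.7 to 11.9 in KO and 11.6 to 11.8 in WT cells on the other 3 proliferating arrays. Proliferating replicates 3 and 4 also had unequal signals of sex-linked genes, with Xist log2 ratios of -1.41 and -2.28 and Ddx3y log2 ratios of 2.41 and 2.94. Without both of these arrays, 31 of 40 genes passed the adjusted test below in differentiating and 0 of 40 in proliferating cells, the same counts as with them. The number of arrays limits the precision throughout.

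The promoters show what the genes share in sequence. RefSeq promoter windows of 300 bases (build GRCm38.p6, 250 bases before to 50 after the annotated start) were held for 32 of the 40 genes, the exceptions being Aurkb, Ccna2, Cdc25c, Foxm1, Incenp, Kif20a, Pbk and Tpx2. The CHR was searched as TTTGAA or TTTAAA and the CCAAT box as CCAAT, on both strands, taking 1 window per gene; TTTAAA reads the same on either strand, and a CHR and a CCAAT box may overlap. A CHR match was present in 26 of the 32 windows (81.25%), against 19.9% of 10700 tested genes and 27.8% of all 27025 windows. Within 50 bases of the start it was present in 23 (71.9%), against 5.09% of the tested genes and 8.24% of all windows. A CCAAT box was present in 27 (84.4%), against 38.9% and 37.9%. Both motifs were in 24 windows (75%), against 8.29% and 10.9%, and neither was in those of Mad2l1, Nusap1 and Tacc3. The E2F motif TTTNNCGC, in contrast, was in 3 windows (9.38%), against 8.13% and 5.27%. These matches describe letters in a window and do not show that a factor binds.

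Stretches of 160 bases, ending 50 bases after the start, are printed for 6 genes that rose in differentiating KO cells and carry both motifs, and for Cdc25b, which did not pass the test and has a CCAAT box alone. These are examples and do not tie the motifs to the rise. Ccnb2, Espl1, Kif23 and Ttk carry both motifs and did not pass, while Bub1, Nek2, Nusap1 and Tacc3 have no CHR and passed. Capitals mark CHR and CCAAT box matches on either strand, where TTCAAA and ATTGG are the same elements on the other strand. In the order printed, they lie on GRCm38.p6 at chr4:118437294-118437453 (minus strand), chr3:135212453-135212612 (plus strand), chr4:124936868-124937027 (minus strand), chr7:122159325-122159484 (plus strand), chr13:100786437-100786596 (minus strand), chr10:69352863-69353022 (minus strand) and chr2:131186838-131186997 (plus strand).
Cdc20: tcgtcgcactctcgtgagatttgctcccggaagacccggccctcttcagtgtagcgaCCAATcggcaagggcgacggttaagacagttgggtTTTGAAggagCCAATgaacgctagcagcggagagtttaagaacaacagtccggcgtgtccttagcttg
Cenpe: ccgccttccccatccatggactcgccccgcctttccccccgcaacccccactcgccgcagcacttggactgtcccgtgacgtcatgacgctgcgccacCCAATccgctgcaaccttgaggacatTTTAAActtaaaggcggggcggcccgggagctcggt
Cdca8: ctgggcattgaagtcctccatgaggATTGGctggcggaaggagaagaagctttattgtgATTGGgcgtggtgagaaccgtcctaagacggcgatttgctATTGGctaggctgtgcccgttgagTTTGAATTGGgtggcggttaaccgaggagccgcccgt
Plk1: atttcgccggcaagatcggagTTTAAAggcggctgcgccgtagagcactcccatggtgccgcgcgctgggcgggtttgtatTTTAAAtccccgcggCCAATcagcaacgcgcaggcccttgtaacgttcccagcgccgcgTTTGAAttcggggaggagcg
Ccnb1: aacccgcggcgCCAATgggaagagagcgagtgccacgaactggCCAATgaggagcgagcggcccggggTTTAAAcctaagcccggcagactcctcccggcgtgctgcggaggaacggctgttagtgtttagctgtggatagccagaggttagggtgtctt
Cdk1: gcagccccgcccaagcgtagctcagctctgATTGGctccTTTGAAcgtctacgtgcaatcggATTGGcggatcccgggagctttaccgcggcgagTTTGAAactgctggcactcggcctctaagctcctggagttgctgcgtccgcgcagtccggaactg
Cdc25b: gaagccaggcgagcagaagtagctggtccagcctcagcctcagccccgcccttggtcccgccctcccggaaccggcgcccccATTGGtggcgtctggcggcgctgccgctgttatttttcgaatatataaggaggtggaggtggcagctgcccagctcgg
In Cdc20 the CHR begins 18 bases before the start, between 2 CCAAT boxes, and in Cdca8 a CHR and a CCAAT box overlap.

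**Figure D1:**
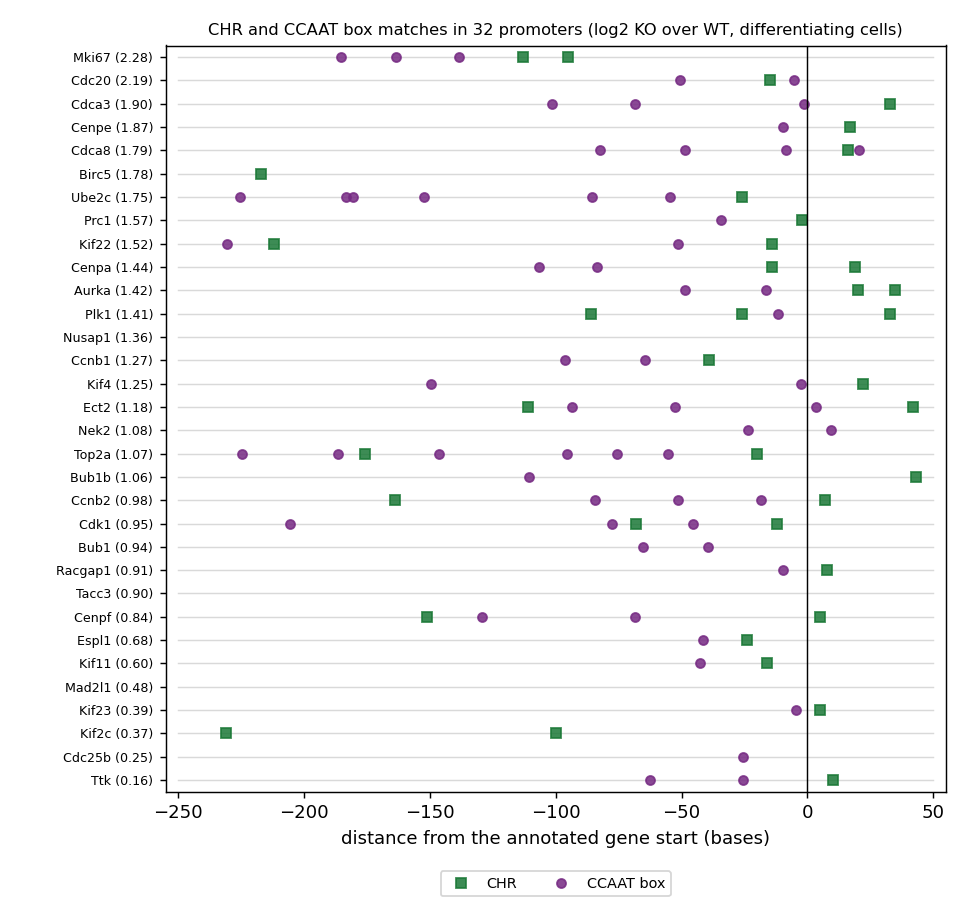
CHR (squares) and CCAAT box (circles) matches along the promoter windows of 32 mitosis genes, by distance in bases from the annotated gene start (vertical line). Genes run from the highest to the lowest log2 KO over WT ratio in differentiating cells, given in brackets; 26 windows hold a CHR and 27 a CCAAT box.

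The comparison of KO with WT cells after mitogen withdrawal asks whether loss of Dnmt3a alters the genes of dividing cells during differentiation. Of the 40 mitosis genes, 31 rose in differentiating KO cells and 0 fell under limma's test (Benjamini-Hochberg adjusted p under 0.05 over 18044 genes), against a background of 2.18% of all tested genes that rose. All 40 had a positive KO over WT ratio on both arrays, as did 30.4% of all tested genes. The median log2 ratio was 1.13, or 2.19-fold, the highest was 2.28 and the lowest among genes above background was 0.25, while the median of all genes was -0.01. In 39 of the 40, both KO signals lay above both WT signals (17.3% of all tested genes). In RNA of whole cultures, more dividing cells and more RNA per dividing cell cannot be told apart. Without differentiating replicate 1 or without replicate 2, 0 of 40 and also 0 of all 18044 genes passed, so these fits say nothing particular about the 40. They rest on 1 array that is assumed to vary like the others; the median ratios were 1.03 and 1.22, and 35 and 36 genes had an unadjusted p under 0.05. With median centring in place of loess 11 passed, and 185 of all tested genes rose, against 394 with loess.

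All 3 genes of mitotic chromosomes and transcription rose, and Mki67 and Cdc20 had the highest ratios of the 40. Mki67, which encodes the Ki-67 protein of the mitotic chromosome surface and marks dividing cells, had log2 signals of 11.05 and 10.75 in differentiating KO cells, against 8.83 and 8.41 in WT cells. Its log2 ratio was 2.28 ± 0.08 (SD, n = 2), 4.85-fold higher (adjusted p = 0.0149). The groups were far apart, with the lowest KO signal well over the highest WT signal. Top2a, the topoisomerase that untangles sister chromatids, had ratios of 1.36 and 0.78 (adjusted p = 0.0144). Foxm1, a transcription factor that activates genes of mitosis, had ratios of 0.87 and 0.66 (adjusted p = 0.041), the smallest rise of these 3 genes.

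Of the genes of protein destruction and anaphase, 3 of 4 rose. Cdc20, the activator of the anaphase-promoting complex, had log2 signals of 12.07 and 11.73 in KO cells, against 9.92 and 9.5 in WT cells. That is a log2 ratio of 2.19 ± 0.06 (SD, n = 2; adjusted p = 0.0131), or 4.56-fold. Ube2c, the ubiquitin-conjugating enzyme of that complex, had ratios of 1.87 and 1.63 (adjusted p = 0.0144). Cdca3, a trigger of mitotic entry, had 1.89 and 1.91 (adjusted p = 0.0156). All 3 rose by over 3-fold, with no overlap between KO and WT signals. Espl1, the protease separase that cuts cohesin, had unequal ratios of 1.02 and 0.33 and did not pass (adjusted p = 0.0614).

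Among the cyclins, CDK1 and its activators, 3 of 6 rose. Ccna2, cyclin A2, had log2 signals of 9.95 and 9.83 in differentiating KO cells, against 8.34 and 8.18 in WT cells (ratio 1.63 ± 0.02, SD, n = 2; adjusted p = 0.0181). Ccnb1, cyclin B1, had 8.57 and 7.82 in KO cells, against 7.06 and 6.79 in WT cells (1.27 ± 0.33; adjusted p = 0.022). Cdk1, the kinase that both cyclins switch on, had 8.60 and 7.5 in KO cells, against 7.23 and 6.96 in WT cells (0.95 ± 0.59; adjusted p = 0.031). Most of its difference lay on replicate 1, and its standard error in the fit of all 6 arrays was 0.13. Ccnb2, cyclin B2, had ratios of 1.12 and 0.85 and did not pass (adjusted p = 0.0729). The CDK1-activating phosphatase genes did not pass. Cdc25c had unequal ratios of 0.87 and 0.19 (adjusted p = 0.0685). On the differentiating arrays it was well above background in KO cells on 1 of 2 and in WT cells on neither. Its bound of at least 1.41-fold higher in KO cells is for the mean of both arrays and does not hold on replicate 2. Cdc25b had 0.27 and 0.22 (adjusted p = 0.574).

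All 4 mitotic kinases outside the cyclin group rose. Pbk, a kinase active in mitosis, had ratios of 1.86 and 1.34 and the smallest adjusted p of the 40 genes (0.0109). Aurka, the Aurora A kinase of centrosomes and spindle poles, had 1.53 and 1.31 (adjusted p = 0.0125). Plk1, the Polo-like kinase of mitotic entry, had log2 signals of 10.17 and 9.76 in KO cells, against 8.77 and 8.35 in WT cells (1.41 ± 0.01; adjusted p = 0.0195). The differences of these genes were larger than the spread between replicates. Nek2, a kinase that separates centrosomes, was not well above background in WT cells on either array and was at least 2.12-fold higher in KO cells (adjusted p = 0.0236). For such a bound the WT signal on each array was raised, where needed, to that of the dimmest probe well above background, per channel after normalization. No signal needed raising for Nek2 and Bub1b, or for the fall of Ttk in KO cells given later. Their figures, here and later, are the measured folds and not stricter bounds.

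The chromosomal passenger complex corrects faulty attachments of chromosomes. Its subunits borealin (Cdca8) and survivin (Birc5) had ratios of 1.79 and 1.78, and of 1.88 and 1.68, and both rose (adjusted p = 0.0152 and 0.0254). Aurkb, the catalytic subunit, was not well above background in differentiating WT cells and was at least 1.56-fold higher in KO cells (adjusted p = 0.0418). Incenp, the scaffold, had ratios of 0.81 and 0.95 and lay at the threshold (adjusted p = 0.051). Among genes of the spindle assembly checkpoint, which holds back anaphase, the kinase gene Bub1 was at least 1.88-fold higher in KO cells (adjusted p = 0.0335) and Bub1b, encoding BubR1, at least 2.09-fold (adjusted p = 0.0149). Their WT signals were not well above background. Mad2l1, encoding Mad2, had ratios of 0.66 and 0.30 (adjusted p = 0.0604). Ttk, the checkpoint kinase Mps1, was not well above background in KO or WT cells, so no fold is given (adjusted p = 0.556).

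Of the 6 mitotic kinesins, 4 rose. Kif20a, a motor of the midzone and cytokinesis, had log2 signals of 10.26 and 10.17 in KO cells, against 8.47 and 8.30 in WT cells (1.83 ± 0.06; adjusted p = 0.0138). The chromosome-bound motors Kif22 and Kif4 had ratios of 1.66 and 1.38 (adjusted p = 0.0255), and of 1.39 and 1.11 (adjusted p = 0.0249). Kif11, the motor that pushes spindle poles apart, was at least 1.5-fold higher, with WT signals not well above background (adjusted p = 0.0454). Kif2c, a microtubule depolymerase, and Kif23, a subunit of centralspindlin, had the lowest ratios of the group, 0.31 and 0.43 (adjusted p = 0.199), and 0.53 and 0.24 (adjusted p = 0.477).

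All 9 genes of the centromere, the spindle fibres and cytokinesis rose. Cenpe, a motor of the kinetochore, had log2 signals of 11.03 and 10.58 in KO cells, against 9.27 and 8.59 in WT cells (1.87 ± 0.16; adjusted p = 0.0157). Cenpa, the histone variant that defines centromeres, had ratios of 1.59 and 1.30 (adjusted p = 0.0307). Cenpf, another kinetochore protein, had 0.62 and 1.06 (adjusted p = 0.0321). Among spindle genes, Prc1, which bundles midzone microtubules, had the highest ratios, 1.69 and 1.44 (adjusted p = 0.0138), followed by Tpx2, an activator of Aurora A, with 1.48 and 1.32 (adjusted p = 0.0152). Nusap1, a microtubule-binding protein, had 1.61 and 1.12 (adjusted p = 0.0257), and Tacc3, which stabilises spindle fibres, 1.00 and 0.80 (adjusted p = 0.0242). Ect2, the exchange factor that starts cytokinesis, had 1.24 and 1.12 (adjusted p = 0.0214). Racgap1, the partner of Kif23 in centralspindlin, had 1.06 and 0.76 (adjusted p = 0.0444), while Kif23 itself did not pass.

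**Figure D2:**
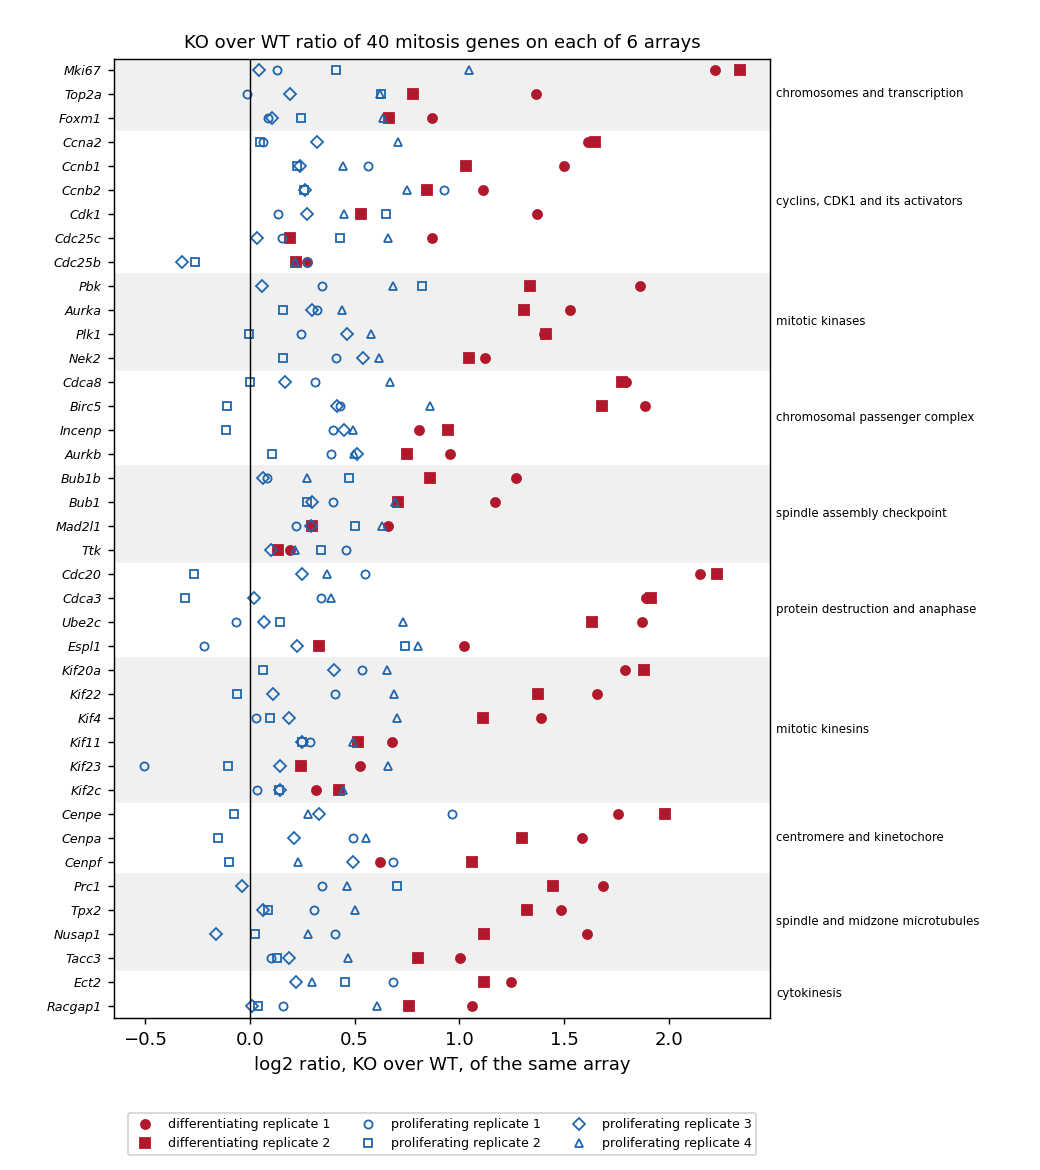
Log2 KO over WT ratio (x axis) of each of 40 mitosis genes on each array, grouped by role, with filled red symbols for the 2 differentiating arrays and open blue symbols for the 4 proliferating ones. All red points lie above 0, and in 30 genes both lie above all 4 blue points.

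Brightness and ratio went together among the 40 genes. Across genes, the differentiating ratio correlated with the mean log2 signal over all 12 channels (Pearson's r = 0.755, Spearman's rho = 0.738, n = 40 genes, which share the same arrays and are not independent). The 9 genes that did not pass had a median signal of 8.84 on the log2 scale, against 10.5 for the 31 that passed. The same held between probes of a gene. Of 20 further probes past the filter, for 17 of the genes, 16 had a smaller differentiating ratio than the gene's brightest probe, although all 20 had positive means. Cdca8 is an example, with 1.79 at its brightest probe, 0.56 at a dimmer one and -0.04 at another that was not above background on any array. The lowest of the 20 means were 0.03 at a probe of Cenpe and 0.05 at a probe of Ect2, both negative on differentiating replicate 2. With Agilent's processed signals, which carry no offset, the median ratio was 1.90, and with offset 16 in place of 50 it was 1.49. Processed signals replace the background correction, the offset and the dye normalization together. The part that dim signal plays in the order of the genes was not tested.

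In proliferating cells the question is whether KO cultures already differ while mitogens are present. Of the 40 genes, 0 passed limma's test in proliferating KO against WT cells (adjusted p from 0.0601 to 0.957), with a background of 0.615% of all tested genes that rose. An unadjusted p under 0.05 was found for 27, against 15.9% of all tested genes, and for 7 without proliferating replicates 3 and 4 together. The ratios were small and mostly positive. The median log2 ratio was 0.31, or 1.24-fold, and 39 of the 40 means were above 0 (47.9% of all tested genes). On all 4 arrays 24 genes were positive (9.85% of all tested genes). The largest mean was 0.55 ± 0.34 for Ccnb2 (SD, n = 4), with ratios of 0.93, 0.26, 0.26 and 0.75, and the smallest was -0.02 ± 0.31 for Cdc25b, with 0.27, -0.26, -0.32 and 0.22. Mad2l1 came nearest to the threshold, with 0.22, 0.50, 0.29 and 0.63 (adjusted p = 0.0601), and Pbk followed with 0.34, 0.82, 0.06 and 0.68 (adjusted p = 0.0653). Replicate 4 gave 25 genes their highest proliferating ratio (62.5%, against 23.7% of all tested genes), and its median was 0.57, against 0.32, 0.13 and 0.20 on replicates 1 to 3. Without replicate 4 the median over the fit was 0.24 and again 0 passed.

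The difference between both KO effects was tested in the same fit. For 39 of 40 genes the KO over WT ratio was larger in differentiating than in proliferating cells, as for 48.7% of all tested genes. The median difference was 0.80 on the log2 scale, but 0 passed (smallest adjusted p = 0.0876), against a background of 0.0333% of tested genes. An unadjusted p under 0.05 was found for 31, against 12.04% of all tested genes. In 30 genes both differentiating ratios exceeded all 4 proliferating ones (9.51% of all tested genes). Cdc20 had the largest difference, 1.96 (95% interval 1.43 to 2.50; adjusted p = 0.0876), with ratios of 2.15 and 2.23 in differentiating cells and of 0.55, -0.27, 0.25 and 0.37 in proliferating cells. Mki67 followed with 1.87 (1.24 to 2.50; adjusted p = 0.0944), with 2.22 and 2.34 in differentiating cells and 0.13, 0.41, 0.05 and 1.04 in proliferating cells. Cdca3 differed by 1.79, from 1.89 and 1.91 in differentiating cells against 0.34, -0.31, 0.02 and 0.39 in proliferating cells. Mad2l1 differed by 0.07 (-0.21 to 0.34), and no difference is given for Ttk, whose differentiating signals were not well above background. The call depends on the setting: 12 genes passed with Agilent's processed signals and 13 with array weights. Of all 18044 tested genes, 49 and 94 then passed in the same direction, against 6 in the main fit.

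**Figure D3:**
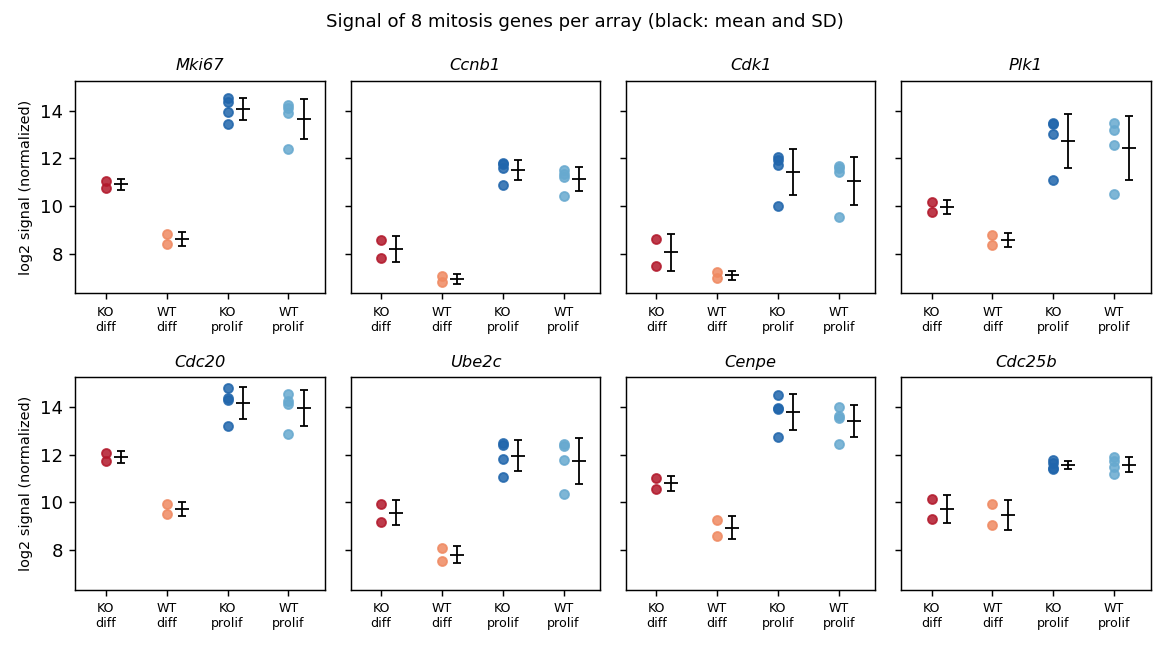
Normalized log2 signal of 8 mitosis genes on each array, in differentiating KO and WT cells and then in proliferating KO and WT cells; points are arrays (n = 2 or 4) and black bars give the mean and SD. Differentiating signals lie below all proliferating ones in both genotypes, and in Cdc20 the differentiating KO signals of 12.07 and 11.73 stand above the WT signals of 9.92 and 9.5.

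How far the genes fell on differentiation was read from the separate colours, between arrays. In KO cells all 40 genes fell (background 6.08% of all tested genes that fell), with a median log2 change of -2.81, a 7.02-fold lower signal. Ttk was counted, although it was well above background in proliferating cells alone and so passed the filter only through them; its fall in KO cells was at least 2.22-fold (adjusted p = 0.0353). In WT cells 39 fell (background 5.89%), with a median of -3.76, or 13.6-fold, and Ttk lay at the threshold (adjusted p = 0.0504). In both genotypes every differentiating signal lay below every proliferating signal for all 40 genes, as it did for 19.2% of tested genes in KO and 17.7% in WT cells. In 39 genes the differentiating KO signals were also below all proliferating WT signals, a count made for the 40 genes alone, with no share over all tested genes. Each condition had its own slide and its own scan, so condition, slide and scan cannot be told apart in these 2 comparisons. Without differentiating replicate 1 or 2, with 1 array assumed to vary like the others, the counts were 5 and 6 in KO cells and 19 and 30 in WT cells; of all tested genes 61 and 56 then fell in KO cells and 70 and 234 in WT cells, against 1097 and 1062 with all arrays. Without proliferating replicate 1 the KO count was 25. Without proliferating replicate 4, which had the low signals, the medians were -3.17 in KO and -4.19 in WT cells, and 40 genes fell in each.

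The fall was smaller in KO than in WT cells for 39 of the 40 genes, the exception being Ttk, at background in differentiating cells; this is the same contrast as the difference of the KO effects, for which 0 passed. Mki67 had log2 signals of 11.05 and 10.75 in differentiating KO cells, against 14.35, 14.52, 13.96 and 13.44 in proliferating KO cells, an 8.97-fold fall (adjusted p = 0.00355). In WT cells it had 8.83 and 8.41 when differentiating, against 14.22, 14.11, 13.91 and 12.40 when proliferating, a 32.8-fold fall (adjusted p = 0.000514). Cdc20 fell by 4.84-fold in KO cells (adjusted p = 0.0102) and 18.9-fold in WT cells (adjusted p = 0.000749). Pbk had the largest fall of the 40 in KO cells, 12.7-fold (adjusted p = 0.000913), and fell 27.8-fold in WT cells (adjusted p = 0.000514). For Bub1b, whose differentiating WT signal was not well above background, the WT fall was at least 16.2-fold (adjusted p = 0.00105), and for Nek2 at least 12.5-fold (adjusted p = 0.00221). Cdc25b fell less, by 3.58-fold in KO cells (adjusted p = 0.00766) and 4.32-fold in WT cells (adjusted p = 0.00403).

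**Figure D4:**
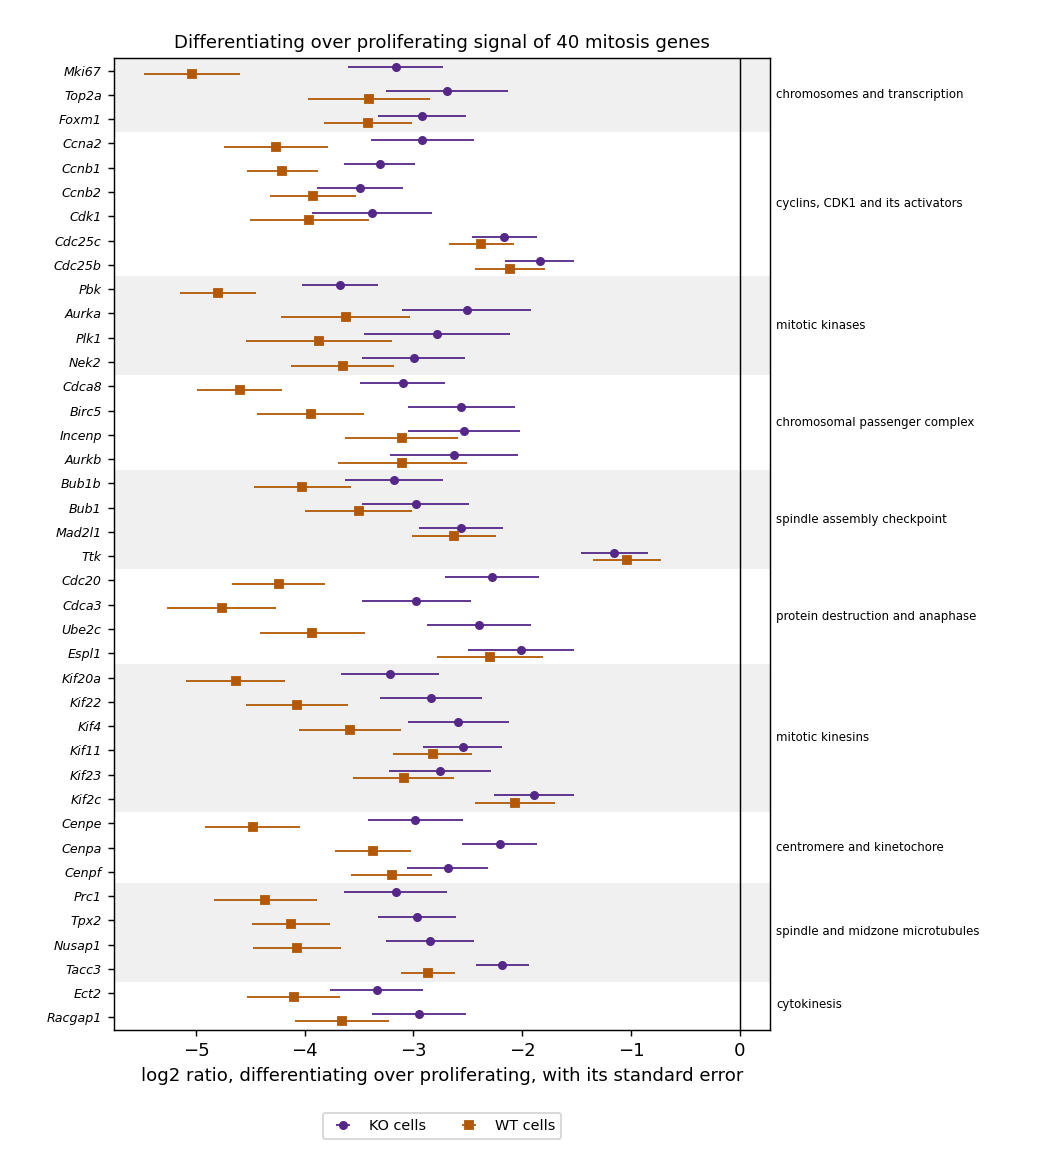
Log2 ratio of differentiating over proliferating signal (x axis, with its standard error) for 40 mitosis genes in KO cells (circles) and WT cells (squares), grouped by role. All points lie below 0, and the KO point is nearer to 0 than the WT point for every gene but Ttk.

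Other genes of the cell cycle were described beside the 40. Of 88 tested other mitosis genes, 7 rose in differentiating KO cells (7.95%, against 2.18% of all tested genes) and 0 fell, with a median log2 ratio of 0.21. The 7 were Cdca5, Melk, Spc25, Cenpp, Nuf2, Cenpk and Kif18b, the last 3 named after their values were seen. Cdca5, encoding the cohesin protector sororin, had ratios of 1.12 and 1.19 (adjusted p = 0.016), and Melk, a kinase of dividing progenitors, 1.54 and 1.16 (adjusted p = 0.0266). In differentiating WT cells 15 of the 88 were not well above background on either array. Of 39 genes of DNA replication and S phase, 4 rose (10.3%, against 2.18%) and 37 were positive (94.9%, against 48.3% of all tested genes), with a median of 0.46. The 4 were Mcm6, a helicase subunit (1.81 and 1.55; adjusted p = 0.0228), Uhrf1, a partner of maintenance DNA methylation (1.31 and 1.33; adjusted p = 0.0281), and the replication licensing genes Cdt1 and Mcm10. Of 22 genes of the G1 switch 1 rose (4.55%, near the 2.18% of all tested genes), E2f2 (1.34 and 2.37; adjusted p = 0.0262), with a median of 0.09 for the list. No test compared the lists with each other.

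CDK inhibitor genes went both ways. Cdkn1c, which encodes p57, rose in KO cells in both conditions, with ratios of 1.46 and 1.38 in differentiating cells (adjusted p = 0.0203) and of 0.53, 1.09, 1.15 and 1.17 in proliferating cells (adjusted p = 0.0316). Cdkn1b, which encodes p27, fell in both, with -1.13 and -0.24 in differentiating cells (adjusted p = 0.0477) and -0.48, -1.47, -0.43 and -1.09 in proliferating cells (adjusted p = 0.0201). The other 5 inhibitor genes did not pass in either condition. Cdk6, a G1 kinase gene, rose in proliferating KO cells, with ratios of 2.24, 1.53, 2.14 and 1.28 (adjusted p = 0.0109), and had -0.42 and 0.58 in differentiating cells; the difference of -1.72 passed (adjusted p = 0.0432). In proliferating cells 0 of 88 other mitosis genes and 0 of 39 S phase genes passed by limma, with medians of 0.13 and 0.16. At an unadjusted p under 0.05 there were 25 and 4, and the 4 are a smaller share than the 15.9% of all tested genes. On differentiation, 50 of 88 other mitosis genes and 12 of 39 S phase genes fell in KO cells, against 52 and 22 in WT cells. Of all tested genes 6.08% fell in KO and 5.89% in WT cells. In KO cells 1 other mitosis gene rose, and in WT cells 2, against 1647 and 1626 of all 18032 tested genes. All 39 S phase genes had a negative change in both genotypes, with medians of -1.67 in KO and -1.95 in WT cells. The test of the difference of the KO effects was passed by 0 of these 39.

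Markers of cell types moved with the same comparison, and their part in it was not tested. In differentiating KO against WT cells, 6 of 11 tested neuron markers fell and 0 rose (median -1.38), against 0.914% of all tested genes that fell, with mean log2 signals over the list of 9.05 and 9.01 in KO cells, against 10.55 and 10.34 in WT cells. Syt1 and Tubb3 had the smallest p (ratios -2.87 and -2.13, adjusted p = 0.0124, and -1.68 and -1.44, adjusted p = 0.0144), and Gad2 and Neurod1 were too dim to test. Gad1 and Stmn2, both among the 11, were not well above background in differentiating KO cells. Stmn2 was also not well above background in proliferating cells of either genotype, so it passed the filter only through differentiating WT cells. Of 12 oligodendrocyte lineage markers 4 rose (Cnp, Sox10, Cldn11 and Mag), against 2.18% of all tested genes that rose. The list had a median of 1.53 and mean log2 signals of 12.83 and 12.71 in KO cells, against 11.41 and 11.09 in WT cells. Mog, among the 12, was well above background only in differentiating KO cells and passed the filter only through them. Of 8 astrocyte markers 2 rose (25%, against the same 2.18%), Aqp4 (2.84 and 2.99; adjusted p = 0.00748) and Gjb6. Mean log2 signals over the list were 13.22 and 12.73 in KO cells, against 12.06 and 11.54 in WT cells. Of 15 neural stem cell markers 1 rose, Prom1 (6.67%, against 2.18%), and the list median was -0.25. In proliferating KO cells 2 oligodendrocyte lineage markers rose, Sox10 and Gpr17 (0.615% of all tested genes rose). There 1 neural stem cell marker fell, Pax6 (0.355% of all tested genes fell). Of the neuron and astrocyte markers 0 passed by limma, with 5 of 11 and 5 of 8 at an unadjusted p under 0.05, against 15.9% of all tested genes. Of the microglia markers 2 of 8 were bright enough to test, of the endothelial and mural markers 3 of 8 and of the fibroblast and meningeal markers 4 of 8, and 0 of these passed. Aif1, Cx3cr1, Pecam1, Cdh5, Dcn and Lum were too dim to test.

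**Figure D5:**
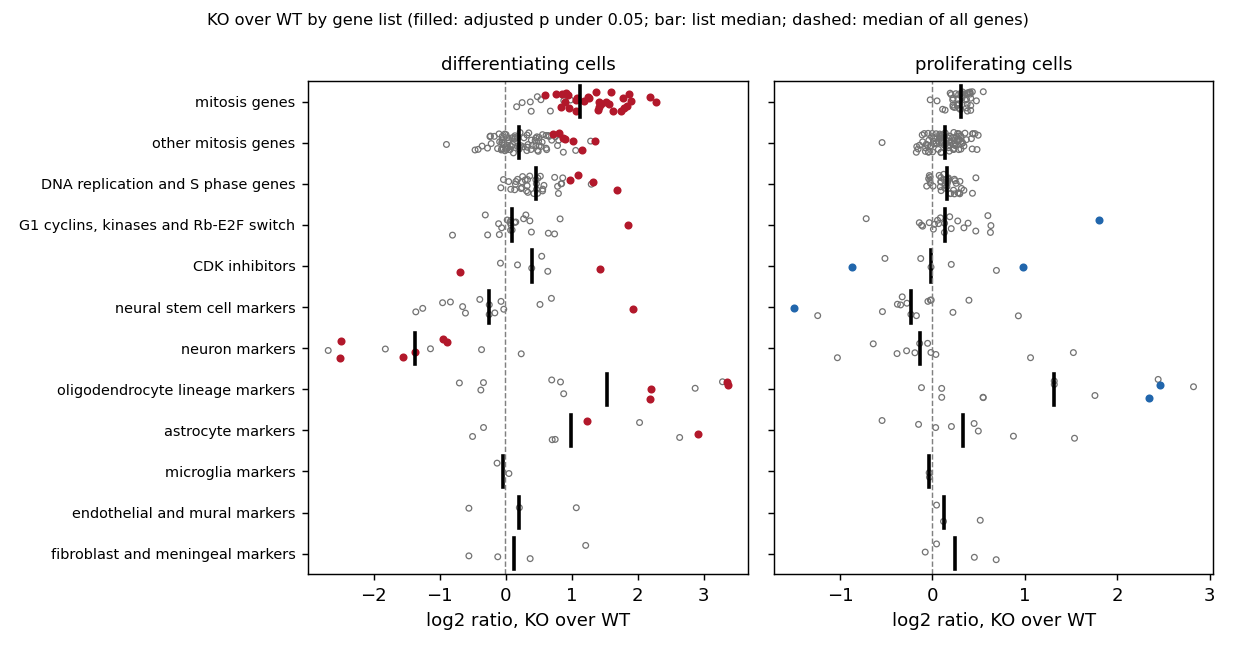
Log2 KO over WT ratio of each tested gene by list, in differentiating cells (left) and proliferating cells (right); filled points passed an adjusted p of 0.05, black bars are list medians and the dashed line is the median of all genes. The 40 mitosis genes have a median of 1.13 in differentiating and 0.31 in proliferating cells, and the neuron markers a median of -1.38 in differentiating cells.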

How the data were processed

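The deposited files hold, per the file headers, spot intensity and local background in each dye and a log10 ratio of Cy5 over Cy3, written by Agilent's Feature Extraction (release 9.5.1.1) for design 014868. The authors' table of values holds those log10 ratios as KO over WT. Per the labels, 500 ng of RNA was labelled, and KO RNA was in Cy5 on differentiating array 2 and proliferating arrays 1 and 3, otherwise in Cy3.

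In R 4.3.3 with limma 3.58.1, statmod 1.5.0 and data.table version 1.17.8, intensities were corrected by normexp (offset 50) and loess, with control and outlier spots at weight 0. Probes were named by accession through RefSeq (22951) or by file (18223), and each gene took its brightest probe. A gene was tested where Agilent's flag put its probe well above background in either dye on 2 or more arrays. The KO effect was fitted on the 6 arrays together, by condition and dye. Differentiating over proliferating changes came from the separate-channel fit after Aquantile (18032 genes, intraspot correlation 0.764). Tests are 2-sided and Benjamini-Hochberg adjusted over all genes. Fits were tested on simulated data. Promoters were searched in Python 3.11.15. Named genes are all 40, Dnmt3a, Nes, Sox2, and those of smallest p per list. Members and lists were chosen with earlier results of these data known. By channel, 52.3% to 59.1% of gene spots passed that flag. Replicate numbers were not used to pair the arrays in the main fits. Background correction, offset, normalization, filter, probe rule, dye term, array weights, arrays in the fit and left-out arrays were varied.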

Additional observations from a re-analysis of the deposited data

Results flagged for a closer look

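Values of 4 proliferating samples were searched for 1 that stood far from the rest by Dixon's critical value at 95%, which chance gives in about 1 of 20 groups. Of 40 member ratios 2 met this: Kif11, with 0.495 on replicate 4 as the highest, and Incenp, with -0.111 on replicate 2 as the lowest. Of the 40 log2 signals in KO cells 11 did, in each case with replicate 4 as the lowest: Top2a 9.12, Ccna2 11.8, Cdk1 9.99, Aurkb 7.92, Foxm1 9.81, Kif11 8.63, Cenpa 10.4, Prc1 11.9, Nek2 9.32, Incenp 12.5 and Ect2 10.4. In WT cells 13 of 40 did, again with replicate 4 as the lowest: Mki67 12.4, Top2a 8.5, Cdk1 9.55, Aurkb 7.42, Foxm1 9.17, Kif11 8.14, Kif22 12.7, Pbk 11.2, Nusap1 10.5, Ttk 6.72, Mad2l1 8.74, Cdc25c 7.78 and Racgap1 9.81.

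Among list medians, replicate 4 was the lowest for the other mitosis genes in KO cells (9.64) and WT cells (9.6), for the S phase genes in WT cells (9.36) and for the 40 mitosis genes in WT cells (10.4), and the highest for the astrocyte markers in KO cells (11.3). The endothelial and mural markers had their lowest median ratio, -0.172, on replicate 1. These signals of replicate 4 were shared by both genotypes, and why it differs was not tested.

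The KO effect differed between conditions, by the test of the difference, for 2 genes of the lists: Aqp4 (2.46, differentiating minus proliferating; adjusted p = 0.0388) and Cdk6 (-1.72; adjusted p = 0.0432). Of the 40 mitosis genes 0 passed that test by limma, and 31 had an unadjusted p under 0.05, against 12.04% of all tested genes.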

How the results depend on the processing

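In differentiating KO against WT cells, with 2 arrays, the count of 31 was 11 with median centring and ranged from 0 to 29 over left-out arrays. The 0 comes from fits with 1 differentiating array, assumed to vary like the others, in which 0 of all 18044 genes passed. With median centring 185 of all tested genes rose, against 394 with loess. The median ratio of 1.13 was 1.9 with Agilent's processed signals, 1.49 with offset 16, 1.4 with the strict filter (30 genes kept) and 0.892 with the mean over probes. Every gene kept had a positive ratio under each alternative run. For the difference of the KO effects, 12 passed with processed signals, 1 without the dye term and 13 with array weights, and the median was 1.6 with processed signals, 1.15 with offset 16 and 1.12 with the strict filter. Of all tested genes 49, 15 and 94 passed in the same direction with processed signals, without the dye term and with array weights, against 6 in the main fit. Leaving out arrays gave 5 to 40 genes lower on differentiation in KO and 19 to 40 in WT cells, whose median was -4.53 with processed signals. Small values changed sign. Cdc25b in proliferating cells was 0.052 with median centring, 0.00549 without replicates 3 and 4 together and -0.155 to 0.1 over left-out arrays. Kif23 was -0.302 without both and -0.126 to 0.202 over left-out arrays, Nusap1 -0.0165 to 0.226 and Cdca3 -0.0298 to 0.267. The difference was 0.224 for Ttk, at background in differentiating cells, with processed signals and -0.078 for Mad2l1 with median centring. The causes were not tested. Of all values per gene under the alternatives, 2758 kept direction and call, 246 lost the call, 55 gained it and 11 changed sign.

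With the replicate block (consensus correlation 0.0523) 32 genes passed in differentiating cells, 0 in proliferating cells and 0 for the difference. Deviations of arrays with the same number correlated at -0.369 and -0.288. Those arrays had KO RNA in opposite dyes and dye was not removed, so pairing by number is neither shown nor excluded. Slide and scan were the same as condition, so a block for them could not be fitted. The differentiating arrays alone allowed no dye term.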

Other observations

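Among the 32 genes with a promoter window, the 26 with a CHR had a median log2 KO over WT ratio of 1.26 in differentiating cells (up to 2.28; 21 passed), and the 6 without had 0.92 (0.25 to 1.36; 4 passed). Genes with a CCAAT box (27) had 1.18 and those without (5) had 0.90. The 8 genes with no window had 1.14. The ranges overlap, and no test was made. Nusap1, with neither motif, had 1.36.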
